A study of Mus musculus with 12 samples.

Results

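A set of 9 genes that encode developmental transcription factors of the hypothalamus were followed through the hypothalamus transcriptomes of Wfs1 mutant mice: Six3, Six6, Otp, Sim1, Nkx2-1, Isl1, Dlx1, Lhx6 and Nr5a1. They were taken by symbol from the count table, as 9 of its 24020 genes, and all 9 were found. The mice belonged to the line Wfs1tm1Koks and were wild-type, heterozygous or homozygous for the mutant allele, with 4 animals of each genotype and 1 library per animal. No treatment, age or sex is given in the labels. The Y-linked gene Ddx3y had 94 to 183 counts in a library and the female-expressed gene Xist 0 to 7, the pattern of male tissue in all 3 groups. The tissue of all 3 groups is whole hypothalamus, so a level is an average over many cell types. The protein of Wfs1, wolframin, sits in the endoplasmic reticulum membrane, and people who lack it have Wolfram syndrome.

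These factors bind DNA and set up the regions and neuron types of the developing hypothalamus, and several stay on in adult neurons. SIX3 and SIX6 are paralogous homeodomain proteins of the anterior forebrain, eye field and hypothalamus. OTP, a homeodomain protein, and SIM1, a bHLH-PAS protein that pairs with ARNT2, are required for the neuroendocrine neurons of the paraventricular and supraoptic nuclei. NKX2-1 patterns the ventral hypothalamus, ISL1 is a LIM-homeodomain protein needed for arcuate neurons that make proopiomelanocortin, and NR5A1 (steroidogenic factor 1) marks the ventromedial nucleus. DLX1 and the LIM-homeodomain protein LHX6 belong to the programme of forebrain and hypothalamic GABA neurons.

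The libraries held 979394 to 2330872 counts, and the tested members had 2 to 133 counts in a library, so counting error is part of their spread. Levels are given as CPM, counts scaled to a common library size with TMM factors. Wfs1 itself followed the labels: it stood at 114 to 167 CPM in wild-type, 81.8 to 103 in heterozygous and 14.8 to 20.1 in homozygous libraries. The labelled tissue was checked with 10 hypothalamic peptide genes, none of which was at 0 in any genotype; their summed level was 895 to 1303 CPM in wild-type and 925 to 1266 in homozygous libraries. Most of that sum is Pmch (880 CPM in wild-type and 1031 CPM in homozygous libraries on average). Of the 8 peptide genes tested, 0 rose and 3 fell (Trh, Hdc and Pomc) between homozygous and wild-type mice. Over all genes tested 13.7% rose and 11.6% fell (adjusted p under 0.05). The median log2 difference of the 8 was -0.78, beside -0.03 over all genes, and 7 of 8 were negative. The wild-type and homozygous libraries also differed in composition. The slope of a library's log2 deviations on transcript GC fraction was 0.2741 to 3.2007 in wild-type and -5.0685 to 0.1865 in homozygous libraries, with homozygous replicates 4 and 5 at -4.5674 and -5.0685. The ribosomal RNA precursor Rn45s stood at 958 to 1983 CPM in wild-type and 85.8 to 352 CPM in homozygous libraries. Results of the members and of the named list genes that rest on replicates 4 and 5 are therefore given with and without them. Calls of the marker lists are given with all homozygous libraries only.

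Six3 and Six6 form the paralogous pair of the set, and the 250 bases before their RefSeq transcription starts (build GRCm38.p6, 5′ to 3′ on the gene's strand) are shown because the shared family lets their starts be compared. Capitals mark the CCAAT box in either orientation (CCAAT or ATTGG), searched on both strands. The Six3 window lies at chr17:85620584-85620833 on the plus strand, and the Six6 window at chr12:72939632-72939881 on the plus strand. In the GENCODE M21 annotation the Six3 gene spans chr17:85613608-85629302, so its RefSeq window lies inside that span and not before it.
Six3: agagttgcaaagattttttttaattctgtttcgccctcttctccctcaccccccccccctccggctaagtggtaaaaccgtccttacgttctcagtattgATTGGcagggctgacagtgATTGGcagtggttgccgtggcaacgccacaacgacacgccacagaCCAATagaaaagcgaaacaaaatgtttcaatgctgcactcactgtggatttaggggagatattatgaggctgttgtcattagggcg
Six6: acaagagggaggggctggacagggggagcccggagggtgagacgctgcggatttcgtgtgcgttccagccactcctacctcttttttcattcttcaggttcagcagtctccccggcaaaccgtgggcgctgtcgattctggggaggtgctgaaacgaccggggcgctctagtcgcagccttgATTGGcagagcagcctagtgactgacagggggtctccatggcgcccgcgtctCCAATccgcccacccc
The Six3 window held 3 CCAAT boxes and the Six6 window held 2. Of 32851 RefSeq promoter windows of this length, 33.8% held at least 1 box, 10.1% at least 2 and 2.79% at least 3. The longest stretch common to both windows was ttgATTGGcag, 11 bases around a box, 153 bases before the start of Six3 and 71 bases before that of Six6. It occurred in 11 of the 32851 windows (0.0335%), those of Six3 and Six6 included. The stretch was found by searching these same windows, so that share tests nothing. Among the other genes with an entry, Isl1 held 2 boxes and Otp 1; Sim1, Nkx2-1 and Dlx1 held 0, and the 3 starts of Lhx6 held 1, 0 and 1. These matches describe the letters of the windows only.

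Six3 (chr17:85613608-85629302, plus strand, protein-coding, from GENCODE M21, build mm10, as for all genes here) was the member called between homozygous and wild-type mice (adjusted p under 0.05). Its level was 28.6, 27.6, 40.8 and 37.3 CPM in wild-type replicates 1, 2, 3 and 5 (29 to 60 counts). In heterozygous replicates 1 to 4 it was 35.4, 35.9, 43.2 and 51.2 CPM. In homozygous replicates 1, 2, 4 and 5 it was 42.2, 59.7, 50.3 and 58.7 CPM (52 to 133 counts). Every homozygous library lay above every wild-type library, while heterozygous libraries overlapped with both. By genotype Six3 averaged 33.6 ± 6.50 in wild-type, 41.4 ± 7.45 in heterozygous and 52.7 ± 8.17 CPM in homozygous mice (SD, n = 4 each). Six3 rose 1.56-fold in homozygous mice, a log2 fold change of 0.64 (SE 0.190, 95% interval 0.245 to 1.03, edgeR adjusted p = 0.0165). In bulk tissue more cells of a type and more RNA per cell cannot be told apart. Heterozygous minus wild-type was 0.28 (SE 0.191, adjusted p = 0.534) and homozygous minus heterozygous 0.36 (SE 0.182, adjusted p = 0.274), neither past the threshold.

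The Six3 difference kept its size but not its call in some fits. Without homozygous replicates 4 and 5 it was 0.61 (adjusted p = 0.0556), without wild-type replicate 2 it was 0.57 (adjusted p = 0.0516), and with the GC score as a covariate it was 0.66 (adjusted p = 0.133). Some genes of the marker lists for striatum, for tanycytes and ependyma and for thalamus also differed, beside 13.7% of all tested genes called higher. Whether hypothalamic neurons express the listed genes too was not tested. The striatum is a region where Six3 is also expressed. Its summed markers were at 392 to 410 CPM in wild-type and 442 to 526 CPM in homozygous libraries. Much of that difference was in Penk (137 and 186 CPM on average) and Tac1 (68.3 and 101 CPM). Of 8 tested, 1 rose (Penk), and 5 differences were positive and 3 negative. Of the others, Ppp1r1b differed by -1.36 (adjusted p = 0.0531, no overlap), Drd1a by -0.44 (adjusted p = 0.388) and Rgs9 by -0.31 (adjusted p = 0.183). The striatal receptor gene Adora2a had 7 counts in the wild-type and 0 in the homozygous libraries. Summed tanycyte and ependyma markers were at 128 to 167 and 186 to 231 CPM, with 2 of 5 tested higher. Dio2 made up most of that difference (22.1 and 70.8 CPM on average), and Nes rose by 0.89 on the log2 scale (adjusted p = 0.0475). Vim differed by 0.10, Gpr50 by 0.18 and Col23a1 by -0.43, none past the threshold. Summed thalamus markers were at 708 to 920 and 903 to 1260 CPM, with 3 of 8 tested higher (Rora, Slc17a6 and Ntng1). Slc17a6 had the largest part of that difference (366 and 532 CPM on average), while Lef1 was at 15.1 and 13.9 CPM. Of the 8 differences 7 were positive and 1 negative. The sums were 903 and 992 CPM in homozygous replicates 1 and 2, and 1260 and 1169 CPM in replicates 4 and 5. The part of these cell types and of base composition in the Six3 result was not tested. Six3 shares 106 exon bases with the opposite-strand gene Six3os1 (217 counts in all; log2 fold change -0.35, adjusted p = 0.430), and whether counting used strand is not given in the sources used here.

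**Figure D1:**
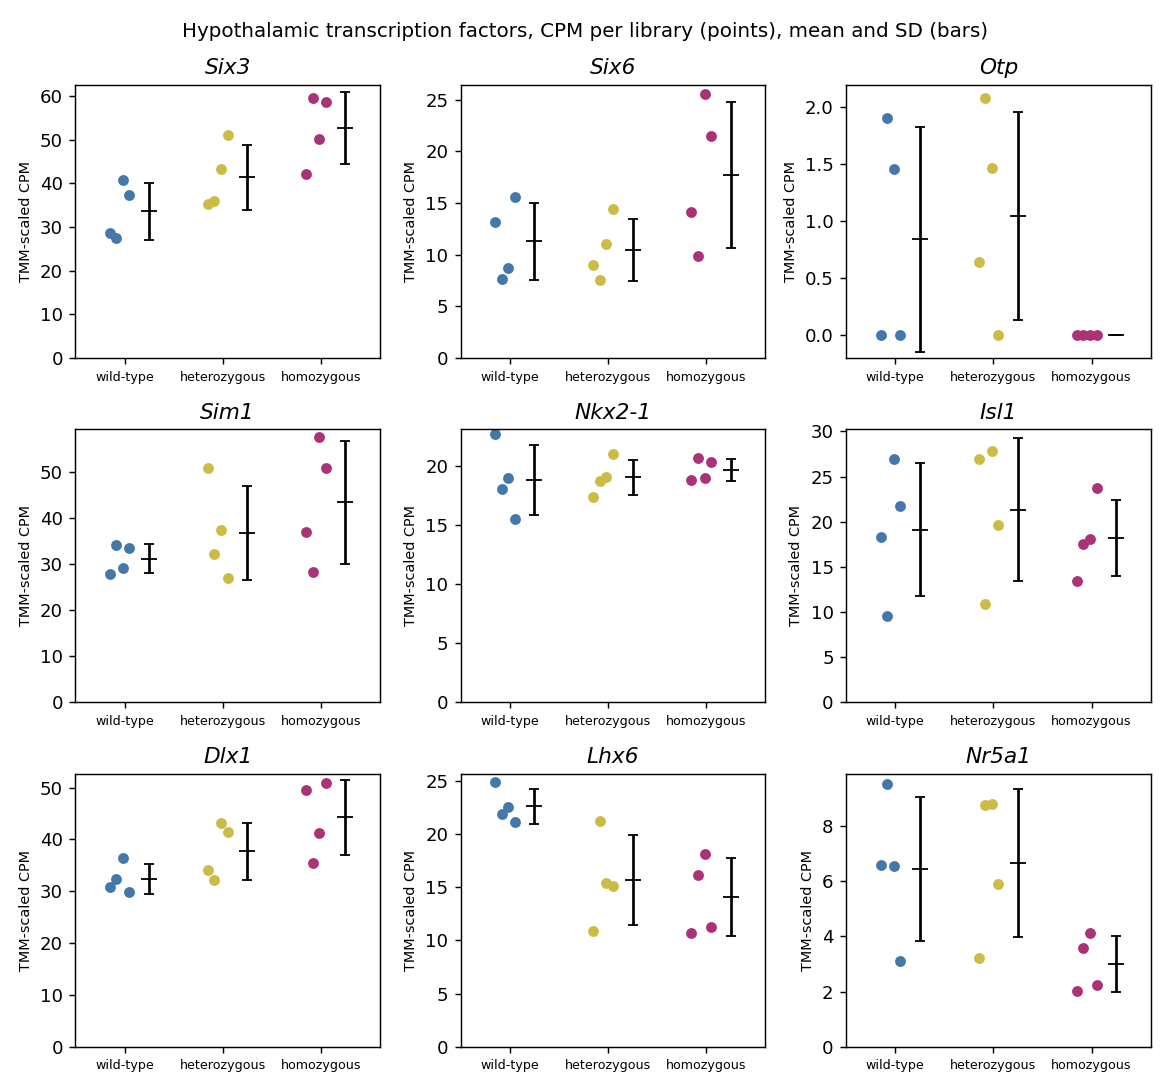
Level of each of the 9 genes in every library (points, TMM-scaled CPM, linear axis) by genotype, with mean and SD as bars (n = 4). The homozygous libraries lie above the wild-type libraries for Six3 and below them for Lhx6, and all 4 homozygous libraries are at 0 for Otp.

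Six6 (chr12:72939892-72944899, plus strand), the paralog of Six3, was 13.2, 7.61, 8.74 and 15.5 CPM in wild-type libraries and 9.0, 7.51, 11 and 14.4 CPM in heterozygous libraries. In homozygous replicates 1, 2, 4 and 5 it was 14.1, 9.88, 25.5 and 21.5 CPM. The high values were those of replicates 4 and 5, and the other 2 lay among the wild-type values. The homozygous minus wild-type difference was 0.54 (SE 0.327, 95% interval -0.133 to 1.22, adjusted p = 0.233). Without replicates 4 and 5 it was 0.03 (adjusted p = 0.975). Homozygous minus heterozygous was 0.71 (SE 0.323), with an unadjusted p of 0.0377 and an adjusted p of 0.213. Six6 overlaps the opposite-strand gene 4930447C04Rik over 192 exon bases (373 counts in all). That gene had a homozygous minus wild-type log2 fold change of 0.42 (adjusted p = 0.328), the same sign as Six6.

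Of the paraventricular pair, Otp (chr13:94875602-94885130, plus strand) was near the limit of detection. It had 0, 2, 2 and 0 counts in the wild-type libraries, 1, 5, 2 and 0 in the heterozygous libraries, and 0 in each of the 4 homozygous libraries. A count of 0 over the homozygous group allows up to 0.511 CPM (3 counts of the group's total), beside 4 wild-type counts and 8 heterozygous counts. Otp did not pass the filter on low counts, so 8 of the 9 genes were tested. In an edgeR fit without the filter, p was 0.0359 (adjusted p = 0.154) for homozygous against wild-type and 0.00853 (adjusted p = 0.123) for homozygous against heterozygous mice. The difference was not detectable at this depth.

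Sim1 (chr10:50894754-50989152, plus strand), which is needed for the same neurons, was measured on 36 to 79 counts per library. It stood at 27.9, 34.3, 29.1 and 33.6 CPM in wild-type and at 50.8, 32.1, 37.4 and 26.9 CPM in heterozygous libraries. In homozygous replicates 1, 2, 4 and 5 it was 36.9, 28.3, 57.7 and 50.8 CPM. The wild-type libraries were close together, and the highest values were heterozygous replicate 1 and homozygous replicates 4 and 5. The homozygous minus wild-type difference was 0.43 (SE 0.231, 95% interval -0.0432 to 0.911, adjusted p = 0.175), and 0.05 without replicates 4 and 5. Sim1 has the lowest transcript GC content of the 9 genes (39.8%), and with the GC score as a covariate its difference was -0.18 (adjusted p = 0.788).

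Nkx2-1 (chr12:56531958-56536908, minus strand) stayed near 19.2 CPM in all 3 genotypes. It was 22.7, 18.1, 18.9 and 15.5 CPM in wild-type libraries, 17.4, 18.8, 19.0 and 21 CPM in heterozygous libraries and 18.8, 20.7, 18.9 and 20.3 CPM in homozygous libraries. All homozygous values lay inside the wild-type range. The homozygous minus wild-type difference was 0.07 (95% interval -0.374 to 0.513, adjusted p = 0.842). Over 22 alternative fits it ranged from -0.065 to 0.43 and was called in 0.

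Isl1 (chr13:116298281-116309689, minus strand) varied widely within each genotype. It was 18.3, 9.51, 27.0 and 21.8 CPM in wild-type libraries, 27.0, 10.8, 27.8 and 19.7 CPM in heterozygous libraries, and 13.4, 17.5, 18.1 and 23.7 CPM in homozygous libraries. The 3 genotypes overlapped, and replicate 2 was lowest in both the wild-type and the heterozygous group. Homozygous minus wild-type was -0.14 (95% interval -0.777 to 0.502, adjusted p = 0.779). Over 22 alternative fits this difference ranged from -0.54 to 0.16 and was called in 0.

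Nr5a1 (chr2:38692656-38714542, minus strand), the ventromedial nucleus factor, rested on 2 to 21 counts per library. Its wild-type levels were 6.60, 9.51, 6.56 and 3.11 CPM and its heterozygous levels 3.21, 8.76, 8.79 and 5.91 CPM. Its homozygous levels were 2.01, 3.59, 4.12 and 2.26 CPM. The homozygous values lay at the low end, but wild-type replicate 5 and heterozygous replicate 1 lay among them. Homozygous minus wild-type was -0.99 (SE 0.467, 95% interval -1.96 to -0.0288), with an unadjusted p of 0.0441 and an edgeR adjusted p of 0.122. Homozygous minus heterozygous was -1.12 (SE 0.443, unadjusted p = 0.0188, adjusted p = 0.160). Without homozygous replicates 4 and 5 the difference from wild-type was -1.06 (adjusted p = 0.234). Over the 20 alternative fits that tested Nr5a1 it ranged from -1.25 to -0.58 and was called in 0.

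Of the GABA neuron factors, Dlx1 (chr2:71528113-71533981, plus strand) was 30.8, 32.3, 36.4 and 29.8 CPM in wild-type, 34.1, 32.1, 43.2 and 41.3 CPM in heterozygous and 49.6, 35.5, 41.2 and 50.8 CPM in homozygous libraries. Homozygous replicate 2 fell inside the wild-type range and the other 3 lay above it. The homozygous minus wild-type difference was 0.43 (SE 0.184, 95% interval 0.0536 to 0.813, unadjusted p = 0.0271, adjusted p = 0.0861). Without replicates 4 and 5 it was 0.38 (adjusted p = 0.255). With an offset for transcript GC content it was 0.71 (adjusted p = 0.00923), and with the GC score as a covariate 0.30 (adjusted p = 0.564). Dlx1 shares 335 exon bases with the opposite-strand gene Dlx1as (208 counts in all; log2 fold change -0.21, adjusted p = 0.633).

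Lhx6 (chr2:36081953-36105408, minus strand) had a difference of the opposite sign. It was 24.9, 21.9, 22.6 and 21.1 CPM in wild-type libraries, 10.9, 21.3, 15.4 and 15.1 CPM in heterozygous libraries and 10.7, 16.2, 18.1 and 11.3 CPM in homozygous libraries. Lhx6 averaged 22.6 ± 1.64 in wild-type, 15.7 ± 4.25 in heterozygous and 14.1 ± 3.64 CPM in homozygous mice (SD, n = 4 each). All homozygous libraries lay below all wild-type libraries, and of the heterozygous libraries only replicate 2 reached the wild-type range. Homozygous minus wild-type was -0.66 (SE 0.251, 95% interval -1.18 to -0.142), with an unadjusted p of 0.0148 and an adjusted p of 0.0562 just above the threshold. Heterozygous minus wild-type was -0.50 (SE 0.240, unadjusted p = 0.0493, adjusted p = 0.351), and homozygous minus heterozygous -0.16 (adjusted p = 0.768). The 2 differences from wild-type share the wild-type libraries. Without homozygous replicates 4 and 5 the homozygous difference was -0.71 (adjusted p = 0.109), and with the GC offset -0.33 (adjusted p = 0.376). Summed basal forebrain and cholinergic markers, a list that holds the related gene Lhx8, were at 16.8 to 40.3 CPM in wild-type and 18.0 to 27.2 CPM in homozygous libraries.

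**Figure D2:**
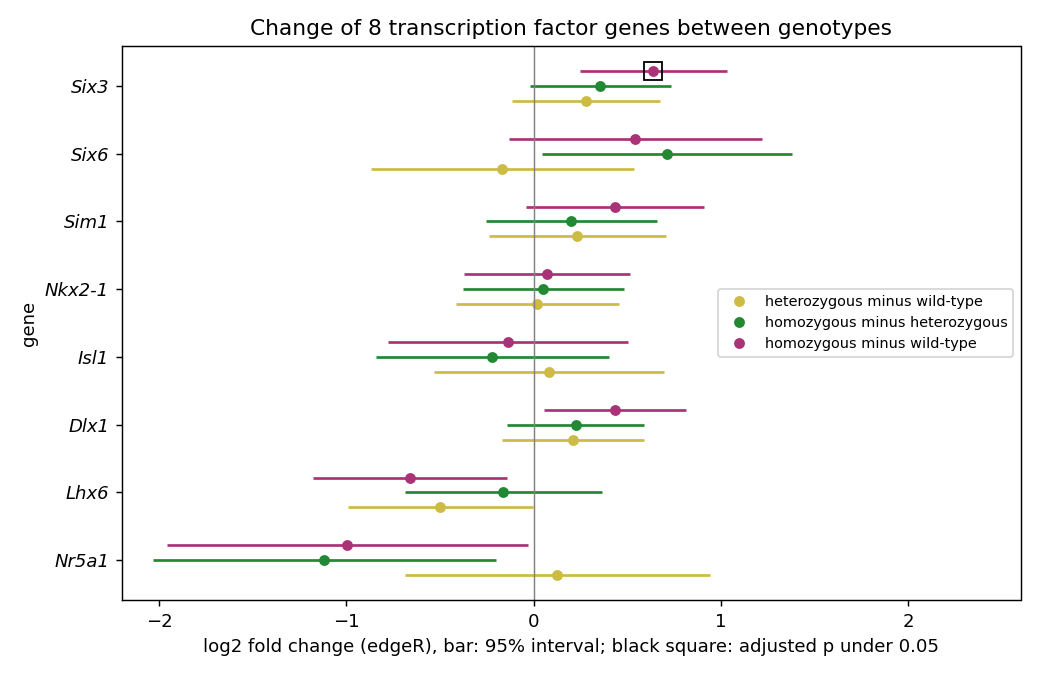
Log2 fold changes of the 8 tested genes for the 3 pairs of genotypes (points) with 95% intervals (lines); a black square marks an adjusted p under 0.05. Six3 in homozygous minus wild-type is the marked difference, and the intervals of Nkx2-1 and Isl1 include 0 in all 3 pairs.

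Over the set, 1 of the 8 tested genes was called between homozygous and wild-type mice, beside 25.4% of all 10737 genes tested (2723 genes, 13.7% higher and 11.6% lower). The groups did not overlap for 2 of the 8, Six3 and Lhx6, beside 23.6% of all genes, and 4 of the 8 had an unadjusted p under 0.05, beside 37.4%. Read against these shares, the counts show nothing particular to the set. The median difference of the 8 was 0.25, with 5 positive and 3 negative, beside -0.03 over all genes. The number called was 0 without wild-type replicate 2, 2 without heterozygous replicate 2 or homozygous replicate 4 (Six3 and Lhx6), and 3 without homozygous replicate 2 (Six3, Dlx1 and Sim1).

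Between heterozygous and wild-type mice edgeR called 0 of the 8, beside 0.596% of all genes, and so did DESeq2 and limma-voom. Lhx6 alone had an unadjusted p under 0.05, beside 14.2% of all genes, and 0 of the 8 were free of overlap, beside 9.34%. Between homozygous and heterozygous mice edgeR, DESeq2 and limma-voom each called 0 of the 8, beside 2.2% of all genes by edgeR. An unadjusted p under 0.05 was found for 2 (Six6 and Nr5a1), beside 20.3% of all genes, and 0 of the 8 were free of overlap, beside 9.48%. The median differences were 0.10 and 0.13.

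**Figure D3:**
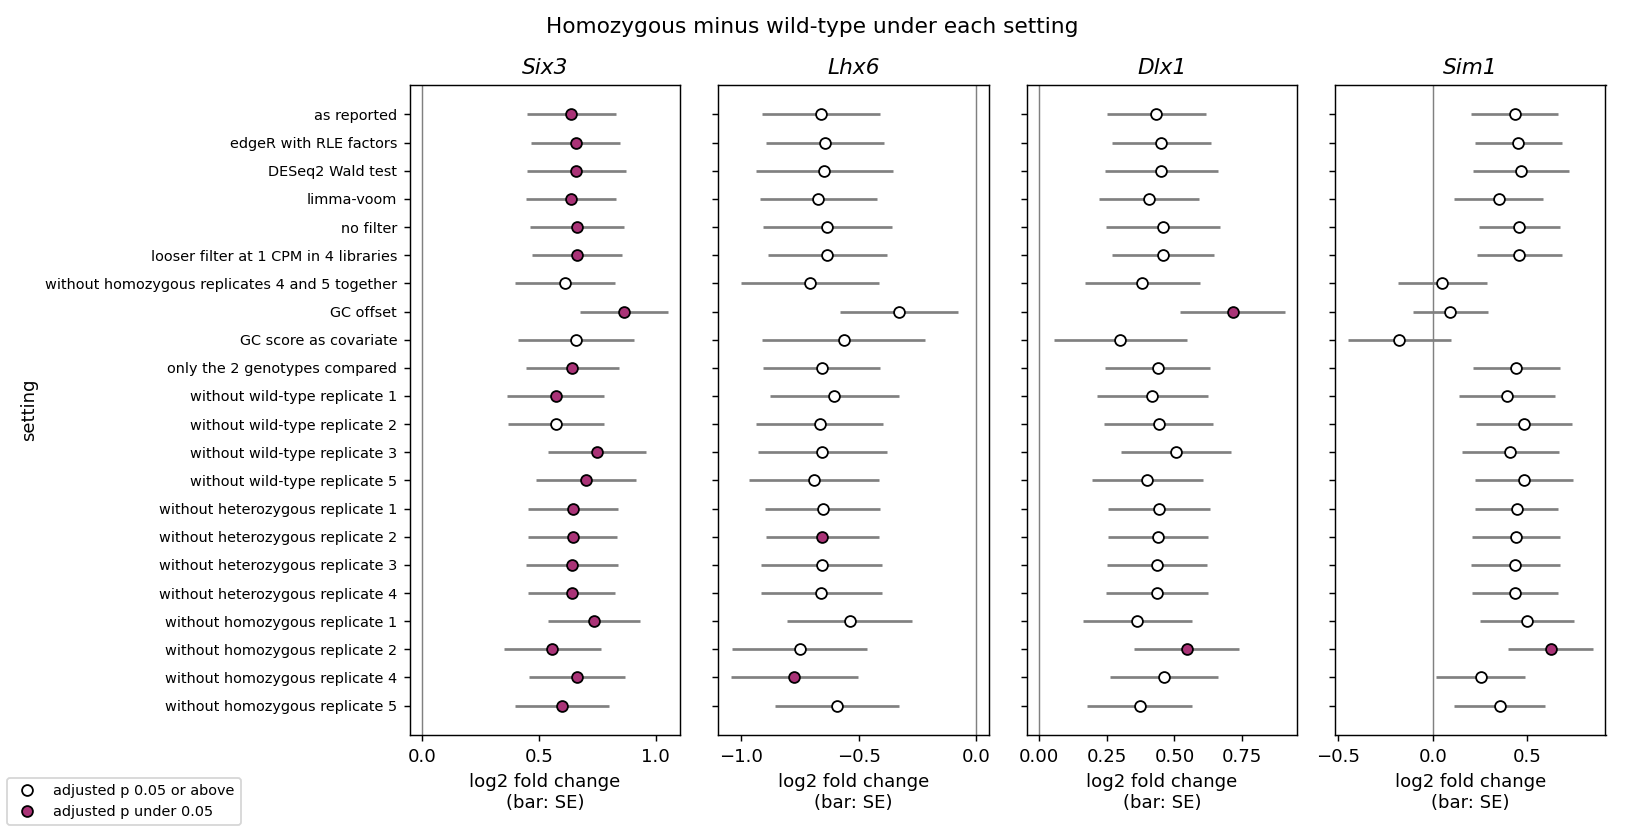
Homozygous minus wild-type log2 fold change (points, SE as lines) of Six3, Lhx6, Dlx1 and Sim1 as reported and under the other settings drawn; filled points have an adjusted p under 0.05. Six3 stays above 0 in these settings and among them is filled except without wild-type replicate 2, without homozygous replicates 4 and 5, and with the GC score as a covariate, whereas Sim1 crosses 0 with that covariate.

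Levels can be compared between genes only per transcript length. Per kb of annotated exons (GENCODE M21), the means over the 12 libraries were 7.82 ± 1.95 CPM per kb for Six3, 7.06 ± 1.32 for Dlx1 and 6.75 ± 0.651 for Nkx2-1 (SD). Isl1 followed at 4.94 ± 1.57, Sim1 at 4.31 ± 1.20, Lhx6 at 3.63 ± 1.03 and Six6 at 3.28 ± 1.40 CPM per kb. Nr5a1 was at 1.27 ± 0.632 and Otp at 0.218 ± 0.294 CPM per kb. Neighbours in this order mostly did not separate: the upper gene was higher in 8 of 12 libraries for Six3 over Dlx1, Dlx1 over Nkx2-1, Nkx2-1 over Isl1, Isl1 over Sim1 and Lhx6 over Six6, and in 5 of 12 for Sim1 over Lhx6. Six6 exceeded Nr5a1 in 10 and Nr5a1 exceeded Otp in 12 of 12. The order depended on genotype. In wild-type libraries Nkx2-1 was highest at 6.62 ± 1.05 CPM per kb, with Six3 at 6.16 ± 1.19 and Lhx6 at 4.71 ± 0.342. In homozygous libraries Six3 was at 9.68 ± 1.5, Dlx1 at 8.20 ± 1.35 and Lhx6 at 2.93 ± 0.757 CPM per kb. Scaled to the longest transcript in place of all exons, Isl1 (7.77 CPM per kb) passed Nkx2-1 (6.83 CPM per kb).

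**Figure D4:**
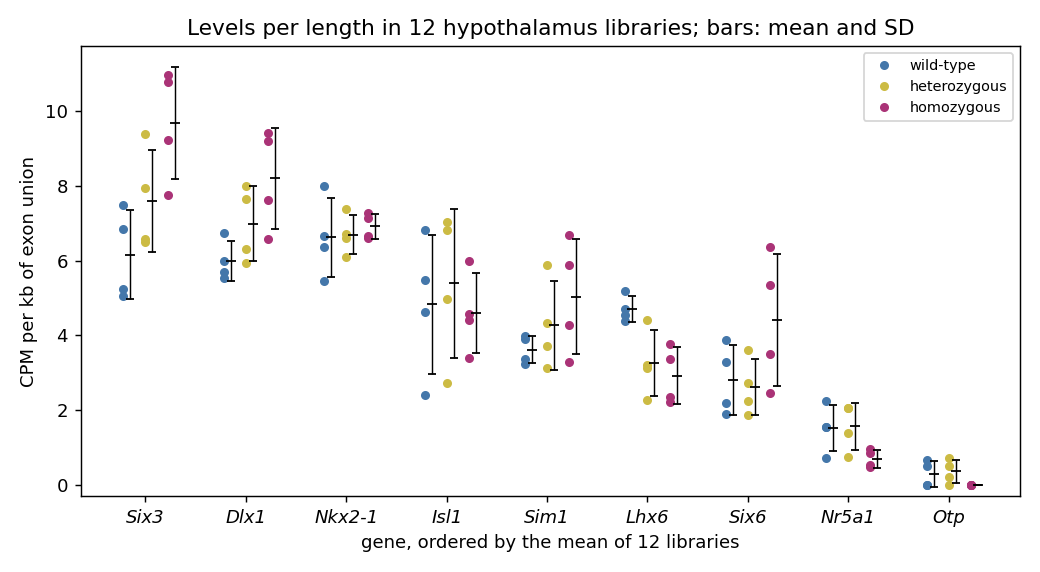
Level per kb of exon sequence in each library (points, CPM per kb, linear axis) by genotype, with mean and SD as bars, genes ordered by the mean of 12 libraries. Six3, Dlx1 and Nkx2-1 lie highest and overlap, and Nr5a1 and Otp lie lowest.

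Further transcription factors of the developing hypothalamus moved little as a list. Of 50 listed, 25 were tested, and between homozygous and wild-type mice 2 rose and 1 fell, beside 25.4% of all genes called, with a median difference of 0.17 beside -0.03 over all genes. Ebf3, a helix-loop-helix factor of differentiating neurons, went up from 63.4 ± 22.6 to 123 ± 17.4 CPM, by 0.96 on the log2 scale (SE 0.204, adjusted p = 0.00169), and the groups did not overlap. Arnt2, whose protein is the partner of SIM1, fell by 0.44 on the log2 scale (SE 0.127, adjusted p = 0.0137), from 329 ± 39.9 to 241 ± 34.5 CPM. Leaving out wild-type replicate 3 took the adjusted p of Arnt2 to 0.0619, leaving out homozygous replicate 5 took it to 0.0507, and leaving out homozygous replicates 4 and 5 to 0.0511. Arnt2 was at -0.28 with the GC offset (adjusted p = 0.0744) and at -0.22 with the GC score as a covariate (adjusted p = 0.455).

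Of 25 cofactors that bind these or related proteins, 19 were tested. Between homozygous and wild-type mice 0 rose and 3 fell, beside 13.7% and 11.6% of all genes. Of the 19 differences 9 were positive and 10 negative, with a median of -0.04. Arnt2 is 1 of the 3 and is also in the list above. Ldb1, the adaptor that joins LIM-homeodomain proteins such as ISL1 and LHX6 into complexes, fell from 48.9 ± 9.50 to 18.1 ± 4.92 CPM (log2 fold change -1.37, SE 0.252, adjusted p = 0.000478). Ssbp3, which stabilises LDB1 complexes, fell from 62.8 ± 8.28 to 31.0 ± 9.22 CPM (log2 fold change -0.96, SE 0.195, adjusted p = 0.00113). In both, the heterozygous means lay between, at 26.2 ± 9.59 and 45.8 ± 6.38 CPM. Without homozygous replicates 4 and 5 both were still called, but with the GC score as a covariate Ldb1 was at -0.92 (adjusted p = 0.0865) and Ssbp3 at -0.41 (adjusted p = 0.306). The part of base composition was not tested further.

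Genes of the neuron types that these factors specify changed in both directions. Of 26 listed, 19 were tested; between homozygous and wild-type mice 2 rose and 3 fell, with a median of -0.21. That number of calls is near the background of 25.4% of all genes. Trh, the thyrotropin-releasing hormone gene of paraventricular neurons, fell from 68.1 ± 15.2 to 32.1 ± 3.56 CPM (log2 fold change -1.08, SE 0.181, adjusted p = 0.00021). Sst, the somatostatin gene of periventricular and other neurons, went up from 141 ± 52.7 to 285 ± 67.2 CPM (log2 difference 1.03, SE 0.210, adjusted p = 0.00114). Pomc, the arcuate gene that needs ISL1, fell from 15.9 ± 5.49 to 6.86 ± 4.50 CPM (log2 fold change -1.12, SE 0.390, adjusted p = 0.0367). The pituitary also expresses Pomc. Its markers Gh, Prl and Pou1f1 were at 0 in all libraries. Tshb had 8 counts in the wild-type and 18 in the homozygous libraries, Cga 2 and 5, Lhb 2 and 0, and Fshb 1 and 1. The part of pituitary tissue in the Pomc result was not tested. The 10 pituitary markers summed to 104 to 145 CPM in wild-type and 57.6 to 89.9 CPM in homozygous libraries, a sum made mostly of Pomc itself and of Chga, which neuroendocrine cells express in general and which fell by 0.66 on the log2 scale (adjusted p = 0.00985).

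The glutamate decarboxylase genes, which encode the enzymes of GABA synthesis, parted: Gad2 rose by 0.54 (SE 0.147, adjusted p = 0.0101), while Gad1 fell by 0.35 on the log2 scale (SE 0.124, adjusted p = 0.0389; the fifth call of its list, named after its value was seen). Gad2 was at 0.35 without homozygous replicate 5 (adjusted p = 0.0555), 0.14 without replicates 4 and 5, and -0.07 with the GC score as a covariate. Gad1 was called under 11 of the 22 alternatives, and its adjusted p reached 0.132 without wild-type replicate 1, 0.114 without wild-type replicate 3 and 0.112 without homozygous replicate 2. It also missed the threshold without wild-type replicate 2, heterozygous replicate 1 or 4, or homozygous replicate 1 (adjusted p = 0.0544, 0.0546, 0.0527 and 0.0764). The Pomc call ended without wild-type replicate 3 or 5 (adjusted p = 0.0888 and 0.153) and without homozygous replicate 2, 4 or 5 (adjusted p = 0.0562, 0.0746 and 0.0851). Pomc was at -0.76 without homozygous replicates 4 and 5 (adjusted p = 0.189), -0.71 with the GC offset (adjusted p = 0.167) and -0.41 with the GC score as a covariate (adjusted p = 0.705). Trh, Sst and Ebf3 were called under each of the 22 alternatives run.

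In the other marker lists, calls between homozygous and wild-type libraries went both ways or were absent, beside 13.7% of all genes called higher and 11.6% lower. Neuron markers had 2 higher and 1 lower of 7 tested (sums of 4503 to 5651 and 5380 to 7569 CPM in wild-type and homozygous libraries). Astrocyte markers had 2 higher and 1 lower of 7 (4246 to 5424 and 5139 to 6644 CPM). In homozygous replicates 1, 2, 4 and 5 the neuron sums were 5380, 6378, 6936 and 7569 CPM. The astrocyte sums were 5139, 5588, 6644 and 6451 CPM, and replicate 1 lay inside the wild-type range in both lists. Oligodendrocyte markers had 1 higher and 1 lower of 7 (3113 to 3931 and 2001 to 3296 CPM). No marker of cortex and hippocampus, microglia or endothelium was called, of 5, 4 and 4 tested. All 5 differences of cortex and hippocampus (median -0.59) and all 4 of microglia (median -0.14) were negative, as were 3 of 4 of endothelium. Cortical and hippocampal markers summed to 65.9 to 94.2 and 59.7 to 66.6 CPM.

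The 4 genes whose pattern over the 12 libraries was most like that of Six3, the member with the highest mean CPM, were Bsn, Mcf2, Mns1 and Ndufa4. Likeness is the root mean square difference of standardised log2 CPM: 0.365, 0.398, 0.430 and 0.440, beside a median of 1.386 over all genes. None of the other members was among them. Dlx1 came nearest, at 0.79 (rank 766 of 10736), then Six6 at 0.947 (rank 1826), and Lhx6 was farthest at 1.66 (rank 8754). The libraries share genotype, depth and composition, so the likeness is a description.

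A total of 4 pairs of members with a known relation were compared across the 12 libraries after the genotype means were removed, by an exact permutation test within genotype (two-sided, 8 p-values adjusted together). Six3 and Six6 had a Pearson r of 0.27 (p = 0.429) and a Spearman rho of 0.22 (p = 0.547), and r was -0.0065 without the 2 libraries farthest from the median of Six3. Dlx1 and Lhx6 had r = -0.47 (permutation p = 0.212) and rho = -0.38 (p = 0.315). Without the 2 libraries farthest from the median of Dlx1, r was -0.35. Nkx2-1 and Nr5a1 had r = 0.44 (permutation p = 0.255) and rho = 0.29 (p = 0.416). Without the 2 libraries farthest from the median of Nkx2-1, r was 0.27. Otp and Sim1 had r = 0.13 (permutation p = 0.694) and rho = 0.09 (p = 0.799), on very few Otp counts. Without the 2 libraries farthest from the median of Otp, r was -0.32. The adjusted p-values were 0.686 to 0.799, so no pair was shown to vary together within genotypes.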

How the data were processed

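Hypothalamus RNA of 12 mice (4 per genotype) was sequenced. Per the labels' protocols, cDNA was made from 50 ng of total RNA (NuGEN Ovation RNA-Seq System V2) and read as 75 and 35 bp pairs on a SOLiD 5500xl. The deposited values are raw counts by gene symbol. Build mm10 is named in the submitters' processing notes; for the aligner, counter, annotation and strand, nothing is stated (not given in the sources used here). Libraries were grouped by genotype label; the homozygous column numbered 5 matches no numbered label and was placed by its genotype. Of 24020 genes, 6133 had no count.

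All 12 libraries were fitted together with edgeR 4.0.16 in R 4.3.3 (TMM factors, default filter on low counts, quasi-likelihood F test, genotype as the factor). The filter left 10737 genes; the median degrees of freedom were 23.52 and the biological coefficient of variation 0.148. A call needs p under 0.05 after Benjamini-Hochberg adjustment over every gene tested; SE is the log2 fold change over the square root of F. The labels name 4 individuals per genotype but no litter, batch or day, so p-values measure the spread between these samples; the growth protocol speaks of a different number of animals than the design text, which was followed. Replicates of a group differed beyond sampling noise. DESeq2 1.42.0, limma 3.58.1 (voom), other filters and scalings, left-out libraries and GC corrections (an offset per library smoothed on transcript GC content, or the library's GC slope, called GC score, as a covariate) were alternatives. Annotation and lengths are from GENCODE M21 (20717 symbols matched directly, 1903 by another symbol, 1400 not), promoters from RefSeq GRCm38.p6. The method was tested on simulated data. For the pair correlations all 13824 arrangements within genotypes were enumerated in place of the random draws first planned.

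The members and lists were chosen with earlier results of these data known. The text names all members, up to 4 called genes per list by smallest p (mean CPM of at least 1) and the 4 genes most like the member with the highest CPM. Overlapping opposite-strand genes and Wfs1 are also named. Marker lists are given by counts and sums, and the single marker genes named beside these were picked outside this rule. A further called gene from the lists is not reported here.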

Additional observations from a re-analysis of the deposited data

How the results depend on the processing

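With 2 to 133 counts per library, the tested members are known only within the intervals given, and Otp (12 counts in all) did not pass the filter. Six3 was called between homozygous and wild-type mice under 18 of 22 alternatives, at 0.56 to 0.86. Nothing was called among the members in the other pairs under any alternative.

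Samples with the same replicate number were mostly not alike: of 8 same-numbered pairs 1 had a correlation over 0.1 (-0.265 to 0.337). That pair, heterozygous and homozygous replicate 2, had the highest correlation between genotypes and the deepest libraries (2329642 and 2330872 counts). Whether the number marks a shared batch was not tested. With the replicate number as a block, 0 members and 1308 genes were called between homozygous and wild-type (163 for heterozygous against wild-type, 33 for homozygous against heterozygous), and Six3 was at 0.69 (adjusted p = 0.0608). Wild-type replicate 5 and homozygous replicate 5 were each alone in a level of the block, so they added nothing to the estimated differences. The changes under the block therefore mix the block with the loss of these libraries. Nkx2-1 turned to -0.065 and Isl1 to 0.16 in homozygous minus wild-type under the block. In heterozygous minus wild-type Nkx2-1 turned to -0.095 and Nr5a1 to -0.21. The block also ended the calls of Arnt2 (-0.40, adjusted p = 0.0829), Gad2 (0.23) and Pomc (-0.34, adjusted p = 0.621).

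For homozygous against wild-type, members called were 0 without homozygous replicates 4 and 5, 2 with the GC offset, 0 with the GC score as a covariate and 0 to 3 without single libraries; all genes called were 2723 as reported, 1344 without homozygous replicates 4 and 5, within 1.5 times with the offset, 460 with the covariate, and 1856 to 3076 without single libraries. For heterozygous against wild-type the count of 64 genes was 228 with DESeq2, 41 with limma-voom, 280 without a filter, 430 without homozygous replicates 4 and 5, 157 with the GC offset, 260 with the covariate, 382 with only these genotypes and 3 to 218 without single libraries. For homozygous against heterozygous the count of 236 was 460 with DESeq2, 727 without a filter, 1 without homozygous replicates 4 and 5, 1 with the covariate, 44 with only these genotypes and 6 to 867 without single libraries.

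With the covariate, Six6 turned to -0.33, Sim1 to -0.18 and Gad2 to -0.067 (homozygous minus wild-type), Isl1 to -0.066 (heterozygous minus wild-type) and Sim1 to -0.24 (homozygous minus heterozygous). In homozygous minus heterozygous, Sim1 was -0.18 without homozygous replicates 4 and 5 and -0.025 with the GC offset, and Lhx6 0.080 with the offset. Leaving out single libraries turned differences near 0: Isl1 ranged from -0.32 to 0.067 and Nkx2-1 from -0.015 to 0.18 (homozygous minus wild-type); Isl1 from -0.10 to 0.35, Nkx2-1 from -0.067 to 0.13, Nr5a1 from -0.13 to 0.35 and Six6 from -0.36 to 0.046 (heterozygous minus wild-type); Lhx6 from -0.29 to 0.055 (homozygous minus heterozygous). The cause was not tested. Gad1 missed the threshold with RLE factors (adjusted p = 0.0528), without a filter (0.0747), with a looser filter (0.0684) and with only these genotypes (0.0728).

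Per kb of the longest transcript, Six3 was at 11.6, Dlx1 at 9.27, Isl1 at 7.77 and Lhx6 at 5.02 CPM per kb. Without the 2 farthest libraries r was -0.32 for Otp with Sim1 and -0.0065 for Six3 with Six6; without single libraries the 4 pairs ranged from -0.15 to 0.24 (Otp with Sim1), 0.10 to 0.56 (Six3 with Six6), -0.79 to -0.31 (Dlx1 with Lhx6) and 0.07 to 0.55 (Nkx2-1 with Nr5a1).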
